A study of Mus musculus with 17 samples.

Results

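The steroid-making program centered on fetal Leydig cells was followed through 10 genes in the testes of newborn mice that lacked 1 or both copies of osteocalcin. The genes were Lhcgr, Scarb1, Star, Fdx1, Cyp11a1, Hsd3b1, Cyp17a1, Hsd17b3, Insl3 and Nr5a1. The genes were taken by name: each is the row of the deposited count table whose Ensembl identifier carries that symbol in the GENCODE annotation of the mouse genome build GRCm39. All 10 were found among 55359 genes. The rule reads names only, but the set was proposed with earlier results of these data known.

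Fetal Leydig cells lie between the testis cords and make the androgens that masculinize the male embryo. In Leydig cells luteinizing hormone can bind its receptor and raise cyclic AMP, which switches on the genes for cholesterol uptake and for its transfer into mitochondria. There the side chain of cholesterol is cut off, and enzymes of the endoplasmic reticulum then turn the product into androgen. In the fetal testis of the mouse the last step, from androstenedione to testosterone, takes place in the neighboring Sertoli cells. Fetal Leydig cells also secrete INSL3, the hormone that pulls the testis toward the scrotum.

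Osteocalcin is a hormone made by bone. RNA was sequenced from testes and forebrain of male mice at postnatal day 1, all of the Ocn_GK strain on a 129/SvEv background. The groups were WT pups of WT mothers, Ocn+/- pups of Ocn-/- mothers and Ocn-/- pups of Ocn-/- mothers, with 2, 3 and 3 testes and 3 forebrains each (the sample labels name the brain tissue hippocampus). In every comparison with WT the genotype of the pup therefore cannot be told apart from that of its mother or from the litter, whereas both mutant groups had mothers of the same genotype. The labels do not say which testis and forebrain came from the same pup, or whether a library held the tissue of more than 1 pup. The study took all testes at the same time of day. Levels are given as CPM, the counts of a gene relative to all counts of its library, scaled within a tissue by the TMM method, and libraries are named by genotype and replicate number. A testis library held 7302401 to 8289015 counts and a forebrain library 6518151 to 14621584. In a whole organ, fewer Leydig cells and less RNA per Leydig cell cannot be told apart. Of the markers of each tissue, the summed level of 6 neuron genes was 1342 to 2066 CPM in forebrain and 2.40 to 8.33 CPM in testes. The 8 Sertoli cell genes summed to 1582 to 2384 CPM in testes and 124 to 146 CPM in forebrain.

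Promoters are shown for 6 of the genes, since these hold a short sequence tied to the factor that the last of the genes, Nr5a1, encodes. NR5A1 (also named SF-1) binds DNA and is required for the steroid-making program of gonads and adrenals. The 250 bases before the start of the canonical transcript were read from GRCm39 for 21770 protein-coding genes and searched on both strands. The full SF-1 motif CAAGGNCA occurred in 5.31% of these promoters and the related NR4A motif AAAGGTCA in 1.19%, and neither occurred in any of the 10. The 6-letter core TCAAGG, searched after the longer motifs had not been found, occurred in 13% of the promoters and in 7 of the 10. A match to the core overlaps the 8-letter SF-1 motif in 5 letters. The window stops at the start of the canonical transcript. In Star, Fdx1 and Cyp11a1 this start lies inside the annotated gene, so that in these genes the start of a longer transcript was not searched. In Hsd3b1 it lies just inside the gene, whose outer end at 98767116 falls within the window. The promoters lie at chr17:89099474-89099723 (Lhcgr, minus strand), chr8:26298243-26298492 (Star, plus), chr9:51874869-51875118 (Fdx1, minus), chr19:46661612-46661861 (Cyp17a1, minus), chr8:72141608-72141857 (Insl3, plus) and chr3:98767111-98767360 (Hsd3b1, minus). They are written 5′ to 3′ on the strand of the gene and end at the base before the start, with the core in capitals, as CCTTGA where it lies on the other strand.
Lhcgr: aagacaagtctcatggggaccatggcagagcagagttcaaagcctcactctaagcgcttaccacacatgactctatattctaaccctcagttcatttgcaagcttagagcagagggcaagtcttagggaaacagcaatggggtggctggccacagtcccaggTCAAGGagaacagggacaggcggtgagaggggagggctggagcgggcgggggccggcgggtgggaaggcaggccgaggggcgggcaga
Star: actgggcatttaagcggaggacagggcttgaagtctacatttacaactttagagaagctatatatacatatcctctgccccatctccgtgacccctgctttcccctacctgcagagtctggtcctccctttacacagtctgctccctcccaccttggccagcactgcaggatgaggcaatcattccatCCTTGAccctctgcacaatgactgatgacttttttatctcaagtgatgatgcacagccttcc
Fdx1: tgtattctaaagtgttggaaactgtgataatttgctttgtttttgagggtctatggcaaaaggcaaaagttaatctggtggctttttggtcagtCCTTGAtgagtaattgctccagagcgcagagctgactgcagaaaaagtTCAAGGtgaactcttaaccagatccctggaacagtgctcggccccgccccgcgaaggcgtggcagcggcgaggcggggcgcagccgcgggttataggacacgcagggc
Cyp17a1: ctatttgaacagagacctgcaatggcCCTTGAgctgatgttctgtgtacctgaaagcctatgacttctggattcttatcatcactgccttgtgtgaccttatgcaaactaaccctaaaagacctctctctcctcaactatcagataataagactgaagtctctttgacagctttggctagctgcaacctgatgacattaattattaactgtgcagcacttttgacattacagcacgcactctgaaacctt
Insl3: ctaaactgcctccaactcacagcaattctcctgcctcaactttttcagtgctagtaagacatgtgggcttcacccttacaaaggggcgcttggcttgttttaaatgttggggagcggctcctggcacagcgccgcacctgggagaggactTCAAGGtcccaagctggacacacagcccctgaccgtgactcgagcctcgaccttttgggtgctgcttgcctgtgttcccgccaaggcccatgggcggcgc
Hsd3b1: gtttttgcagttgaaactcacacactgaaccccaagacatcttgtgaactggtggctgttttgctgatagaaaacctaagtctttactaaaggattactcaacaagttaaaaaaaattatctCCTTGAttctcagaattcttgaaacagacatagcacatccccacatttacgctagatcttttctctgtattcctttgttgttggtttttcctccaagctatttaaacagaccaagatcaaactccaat
The core began 88 bases before the start in Lhcgr, 62 in Star, 156 and 108 in Fdx1, 224 in Cyp17a1, 100 in Insl3 and 128 in Hsd3b1. In Nr5a1 it lay at the far edge of the window, 250 bases before the start, and none was found in this window of Scarb1, Cyp11a1 or Hsd17b3. Among the 7 were both genes that lay below WT in every mutant testis and genes that did not (Hsd3b1 and Nr5a1).

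The 10 genes did not move as a block. In 7 of them (Lhcgr, Scarb1, Star, Fdx1, Cyp11a1, Cyp17a1 and Insl3) every one of the 6 mutant testes lay below both WT testes. Over all 16361 genes tested in testes, 13.6% had this order and 12.5% had the reverse. Hsd17b3 and Nr5a1 overlapped with WT, and Hsd3b1 was above both WT testes in 4 of the 6 mutants. The test across all genes (edgeR quasi-likelihood, 2-sided, Benjamini-Hochberg adjustment) passed an adjusted p of 0.05 for fewer of them. Of the 10, 1 gene was lower in Ocn+/- testes (Lhcgr), where 4.36% of all genes were called lower. In Ocn-/- testes 2 were lower (Lhcgr and Fdx1), against 3.09% of all genes. For the mean of both mutant genotypes it was the same pair, against 5.43%. No member was called higher. The 10 genes had a median change of −0.67 (Ocn+/-) and −0.84 (Ocn-/-) on the log2 scale, beside 0.01 and −0.01 over all genes tested. How the libraries were scaled moved the balance of calls over all genes: 52.8% of those in Ocn+/- testes and 54.9% of those in Ocn-/- testes were lower with TMM, and 31.9% and 34.8% with library size alone. For the mean of both the shares were 54.6% and 34.5%. Lhcgr passed in 16 of 16 alternative settings in Ocn+/- testes and in 15 of 16 in Ocn-/- testes, the exception being the fit without WT testis 2 (adjusted p = 0.061). The call of Fdx1 in Ocn-/- testes held in 2 of 8 fits that left out 1 testis. Its adjusted p was 0.309 without WT testis 2, 0.127 without WT testis 1, 0.113, 0.0632 and 0.148 without Ocn-/- testes 1, 2 and 3 and 0.0716 without Ocn+/- testis 1. For the mean of both genotypes its call held in 3 of 8 such fits, with an adjusted p of 0.255 without WT testis 2, 0.119 without WT testis 1, 0.0583 and 0.0683 without Ocn-/- testes 1 and 3 and 0.0734 without Ocn+/- testis 1.

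**Figure D1:**
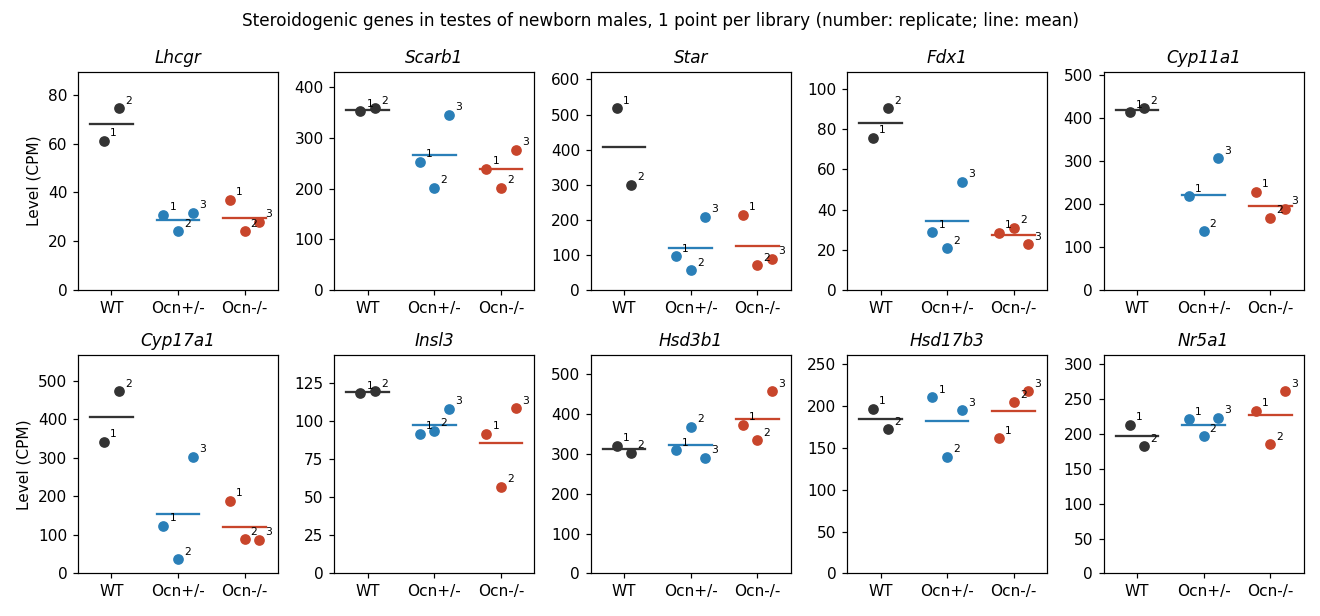
Level in CPM (vertical axis) of each of the 10 genes in the 2 WT, 3 Ocn+/- and 3 Ocn-/- testes. Each point is a library with its replicate number and each line a group mean. In Lhcgr the mutant testes reach at most 37.0 CPM and the WT testes begin at 61.2 CPM, whereas in Hsd17b3 and Nr5a1 the groups overlap and in Hsd3b1 the 3 Ocn-/- testes lie above both WT testes.

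Lhcgr encodes the receptor for luteinizing hormone (ENSMUSG00000024107.8, chromosome 17, 89023909 to 89099473, minus strand). It had 61.2 and 74.4 CPM in WT testes 1 and 2. In Ocn+/- testes it had 31.0, 24.1 and 31.6 CPM. In Ocn-/- testes the 3 values were 37.0, 24.1 and 27.9 CPM. The highest mutant testis thus lay well under the lowest WT testis, and the mutant genotypes overlapped. On the log2 scale Ocn+/- testes differed from WT by −1.23 (SE 0.183, adjusted p = 0.00132) and Ocn-/- testes by −1.19 (SE 0.182, adjusted p = 0.00149), a level 2.35-fold and 2.28-fold lower than in WT.

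Scarb1 encodes the receptor that takes up cholesterol from high-density lipoprotein (ENSMUSG00000037936.16, chromosome 5, 125353547 to 125418176, minus strand). WT testes had 353 and 359 CPM. Ocn+/- testes 1 to 3 had 253, 202 and 345 CPM, and Ocn-/- testes had 239, 201 and 277 CPM. Every mutant value was below WT, but Ocn+/- testis 3 came close to it. On the log2 scale Ocn+/- testes differed from WT by −0.42 (SE 0.192, adjusted p = 0.195) and Ocn-/- testes by −0.57 (SE 0.192, adjusted p = 0.0982), and neither passed the test.

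Star moves cholesterol to the inner mitochondrial membrane, the step that sets the rate of steroid synthesis (ENSMUSG00000031574.9, chromosome 8, 26296583 to 26306010, plus strand). The WT testes differed from each other, with 518 CPM in testis 1 and 299.9 in testis 2. Ocn+/- testes had 96.4, 56.0 and 210 CPM. Ocn-/- testes had 215, 71.1 and 89.3 CPM. In each mutant genotype 1 testis stood above the others, and no mutant testis reached the lower WT value. For the mean of both mutant genotypes Star was 3.33-fold lower with a wide spread (log2 −1.73, SE 0.625, adjusted p = 0.157), and without WT testis 1 the log2 value was −1.28. The separate values were −1.76 for Ocn+/- (SE 0.746, adjusted p = 0.219) and −1.71 for Ocn-/- (SE 0.745, adjusted p = 0.258). They became −2.42 without Ocn+/- testis 3 and −2.33 without Ocn-/- testis 1, neither of them called. Star passed in 1 of 15 alternatives for this mean, edgeR's likelihood ratio test (adjusted p = 0.0392).

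Fdx1 encodes ferredoxin, which hands electrons to the mitochondrial steroid enzymes (ENSMUSG00000032051.10, chromosome 9, 51852253 to 51875291, minus strand). WT testes had 75.8 and 90.3 CPM. Ocn+/- testes had 28.8, 20.7 and 53.9 CPM, and Ocn-/- testes had 28.6, 31.0 and 22.9 CPM. On the log2 scale Ocn+/- testes differed from WT by −1.27 (SE 0.350, adjusted p = 0.0672) and Ocn-/- testes by −1.60 (SE 0.352, adjusted p = 0.0449). The Ocn+/- group held the widest spread, with testis 3 the highest and testis 2 the lowest mutant library.

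Cyp11a1 cuts the side chain of cholesterol and so makes pregnenolone, the parent of all steroid hormones (ENSMUSG00000032323.14, chromosome 9, 57913694 to 57935933, plus strand). The WT testes were close together, at 413 and 422 CPM. Ocn+/- testes had 217, 136 and 306 CPM, and Ocn-/- testes had 228, 168 and 189 CPM. All 6 mutant values lay below WT. Ocn+/- testes differed from WT by a log2 of −0.93 (SE 0.298, adjusted p = 0.102) and Ocn-/- testes by −1.10 (SE 0.298, adjusted p = 0.0790). The mean of both mutant genotypes was 2.02-fold lower (log2 −1.01, SE 0.256), and its adjusted p of 0.0501 fell just outside the threshold. It was past the threshold in 7 of 15 alternatives, with values from 6.2e-06 to 0.309.

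Cyp17a1, whose enzyme turns progestogens into androgens, varied most among Ocn+/- testes (ENSMUSG00000003555.9, chromosome 19, 46655604 to 46661611, minus strand). WT testes had 341 and 473 CPM. Ocn+/- testes spanned 36.5 CPM in testis 2, 123 in testis 1 and 303 in testis 3. Ocn-/- testes had 189, 88.8 and 86.8 CPM. On the log2 scale Ocn+/- testes differed from WT by −1.40 (SE 0.876, adjusted p = 0.382) and Ocn-/- testes by −1.74 (SE 0.879, adjusted p = 0.318). The 95% interval in Ocn-/- testes ran from −3.98 to 0.49 on the log2 scale, so neither a large decrease nor the WT level lay outside it. Without Ocn+/- testis 3 the value for Ocn+/- was −2.35 (adjusted p = 0.206).

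Insl3, the hormone of testis descent, had tight WT values of 119 and 120 CPM (ENSMUSG00000079019.3, chromosome 8, 72141858 to 72143225, plus strand). Ocn+/- testes had 91.7, 93.8 and 108 CPM, and Ocn-/- testes had 91.9, 57.1 and 109 CPM. The mutant values were all lower, by a log2 fold change of −0.28 (SE 0.207, adjusted p = 0.418) and −0.47 (SE 0.207, adjusted p = 0.201). All 629 exonic bases of Insl3 also lie within exons of Jak3 on the same strand, and 91.7% of its 50-base stretches occur in Jak3 transcripts, so the counts of Insl3 rest on how RSEM divided shared reads. Jak3 itself was at 3.79 to 9.90 CPM in testes.

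Hsd3b1, Hsd17b3 and the lineage factor Nr5a1 were not called lower or higher against WT. Hsd3b1, which makes progesterone from pregnenolone (ENSMUSG00000027871.17, chromosome 3, 98757367 to 98767116, minus strand), had 320 and 302 CPM in WT. It had 309, 367 and 291 CPM in Ocn+/- testes and 373, 334 and 456 CPM in Ocn-/- testes. All 3 Ocn-/- testes lay above WT, and the log2 fold change of 0.32 (SE 0.144, adjusted p = 0.202) did not pass the test. Of the 9 annotated Hsd3b genes, those other than Hsd3b1 summed to 83 to 133 counts per testis, and with the counts of all 9 added up the change in Ocn-/- testes was 0.30 (adjusted p = 0.212).

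Hsd17b3 makes testosterone from androstenedione, the step that lies in Sertoli cells in the fetal testis of the mouse (ENSMUSG00000033122.15, chromosome 13, 64206080 to 64237208, minus strand). It had 197 and 172 CPM in WT, 211, 139.7 and 195 in Ocn+/- and 162, 205 and 217 in Ocn-/- testes, and these groups overlapped. Its change on the log2 scale was −0.02 for Ocn+/- (95% interval −0.38 to 0.34) and 0.08 for Ocn-/- (−0.28 to 0.44). Nr5a1 (ENSMUSG00000026751.15, chromosome 2, 38581468 to 38604642, minus strand) had 213 and 182 CPM in WT, 221, 196 and 223 in Ocn+/- and 233, 185 and 261 in Ocn-/- testes. The changes were 0.11 (−0.19 to 0.41) and 0.20 (−0.11 to 0.50).

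**Figure D2:**
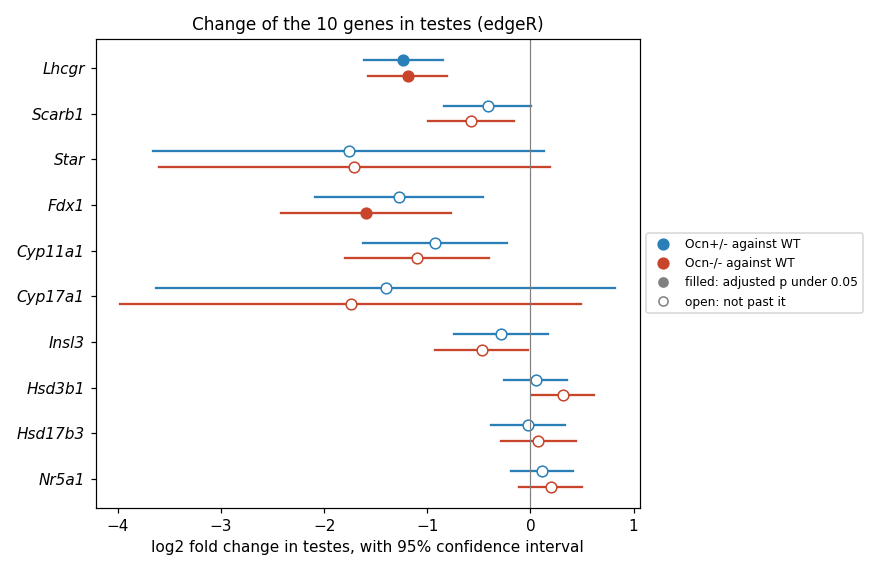
Log2 fold change of each gene against WT in testes (horizontal axis, points) with its 95% confidence interval (lines), for Ocn+/- and Ocn-/- testes. Filled points passed an adjusted p of 0.05, which were Lhcgr in both mutant genotypes and Fdx1 in Ocn-/- testes, and the widest intervals belong to Star and Cyp17a1.

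Per kilobase of all annotated exons together, which allows levels to be set side by side between genes, the WT order was Insl3 at 189 ± 1.19 CPM per kilobase (SD, n = 2), Cyp17a1 at 147 ± 33.5, Hsd17b3 at 119 ± 11.1, Star at 69.3 ± 26.1, Cyp11a1 at 64.5 ± 1.02, Hsd3b1 at 52.9 ± 2.15, Scarb1 at 34.4 ± 0.394, Nr5a1 at 22.3 ± 2.43, Fdx1 at 9.30 ± 1.15 and Lhcgr at 7.72 ± 1.07. The order depends on the length used. Per kilobase of the longest transcript Scarb1 had a mean of 113 and Cyp11a1 121 ± 1.93 (SD, n = 2), both above Star at 96.3 ± 36.3 and Hsd3b1 at 57.1 ± 2.32, and the counts of Insl3 carry the limit given above. In the first order neighbors overlapped within 1 SD from Cyp17a1 to Hsd17b3, from Star to Cyp11a1 and from Fdx1 to Lhcgr. In Ocn-/- testes Hsd3b1 stood at 65.9 ± 10.6 (SD, n = 3), above Cyp17a1 at 43.9 ± 21.1, Cyp11a1 at 30.1 ± 4.75 and Star at 21.2 ± 13.3 CPM per kilobase, an order that the WT means did not have. Per kilobase of the longest transcript Hsd3b1 was likewise above these 3 genes in Ocn-/- means and below them in WT means. The order did not hold in every mutant library: in Ocn-/- testis 1 Cyp17a1 (68.2 per kilobase of all exons) was above Hsd3b1 (63.4). Among Ocn+/- means Cyp17a1 (55.7 ± 49.1, SD, n = 3) and Hsd3b1 (54.8 ± 6.80) were alike, with Cyp11a1 and Star below. Per kilobase of the longest transcript Cyp17a1 (64.2) and Cyp11a1 (63.9) were there above Hsd3b1 (59.1).

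Ratios between the counts of 2 genes of the same library do not depend on how libraries were scaled. They were taken after the levels had been seen. For each count of Hsd3b1 the WT testes held 0.992 and 1.62 counts of Star, and the 6 mutant testes 0.153 to 0.722. For Cyp11a1 the ratio was 1.29 to 1.40 in WT and 0.371 to 1.05 in mutant testes. For Lhcgr it was 0.191 to 0.246 in WT and 0.0612 to 0.109 in mutant testes. For Fdx1 it was 0.237 to 0.299 in WT and 0.0501 to 0.186 in mutant testes. Cyp17a1 came closer, with at least 1.07 in WT and up to 1.04 in mutant testes. Scarb1 (up to 1.19 in WT, 0.551 to 1.19 in mutants) and Insl3 (0.370 to 0.395 in WT, 0.171 to 0.372 in mutants) overlapped, with 5 of 6 mutants below both WT testes. This overlap depended on the divisor. With Nr5a1 instead of Hsd3b1, Scarb1 was 1.66 to 1.97 in WT and 1.02 to 1.55 in mutants, and Insl3 was 0.557 to 0.656 and 0.308 to 0.485. Hsd3b1 and Nr5a1 were taken as divisors because they had not fallen and the other genes because they were low, so the ratios describe the same libraries again.

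Between Ocn-/- and Ocn+/- testes no member was called. 0 of the 10 genes and 0% of all genes passed an adjusted p of 0.05 in edgeR's quasi-likelihood test. At an unadjusted p under 0.05 it was 0 of the 10 and 1881 of all genes. By DESeq2 80 genes were called and by edgeR's likelihood ratio test 59, and 252 in edgeR's quasi-likelihood test with no filter on low counts, in each case with 0 of the 10. The intervals show what 3 testes against 3 could not resolve. For Lhcgr the difference was 0.04 on the log2 scale with a 95% interval from −0.32 to 0.40, while for Star it ran from −1.68 to 1.79 and for Cyp17a1 from −2.39 to 1.71.

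Of the 7 genes that lay below WT, 6 (Scarb1, Star, Fdx1, Cyp11a1, Cyp17a1 and Lhcgr) had positive correlations with each other within genotypes. Ocn+/- testis 3 was the highest Ocn+/- library in Scarb1, Star, Fdx1, Cyp11a1, Cyp17a1, Lhcgr and Insl3, and Ocn+/- testis 2 the lowest in all of these but Insl3. Among Ocn-/- testes, testis 1 was the highest in Star, Cyp11a1, Cyp17a1 and Lhcgr, testis 2 in Fdx1 and testis 3 in Scarb1 and Insl3. Across the 8 testes the log2 levels of Cyp11a1 correlated with those of Cyp17a1 at r = 0.97, of Fdx1 at 0.95, of Star at 0.94, of Scarb1 at 0.93 and of Lhcgr at 0.92 (Pearson). These values describe 8 libraries and include the step between WT and mutant mice. After each genotype's mean had been subtracted they were 0.98 for Cyp17a1, 0.84 for Fdx1, 0.87 for Star, 0.87 for Scarb1 and 0.75 for Lhcgr. As each testis was left out, the value for Cyp17a1 stayed between 0.94 and 0.99, whereas for Fdx1 it ranged from 0.53 to 0.96. The weakest of the pairs among the 6 genes within genotypes was Fdx1 with Lhcgr (r = 0.45). Some of these values rested on 1 testis: with 1 left out, r fell as low as −0.10 for Scarb1 with Fdx1, 0.11 for Fdx1 with Lhcgr and 0.16 for Star with Fdx1. Insl3 followed them less, with an r within genotypes of 0.67 with Scarb1, 0.50 with Lhcgr, 0.43 with Star, 0.39 with Cyp11a1, 0.27 with Cyp17a1 and −0.03 with Fdx1.

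Hsd3b1 had negative correlations with most of these genes. Its r with Cyp11a1 was −0.56 over the 8 testes and −0.49 within genotypes, where leaving out 1 testis moved it between −0.87 and 0.00. With Fdx1 it was −0.68, and −0.77 within genotypes. The other values within genotypes were −0.62 with Cyp17a1, −0.34 with Star, −0.26 with Lhcgr, −0.09 with Scarb1 and 0.59 with Insl3. Insl3 and Nr5a1 were alike within genotypes (r = 0.86). Over all 45 pairs of the 10 genes the median r was 0.37 across the 8 testes and 0.46 within genotypes.

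**Figure D3:**
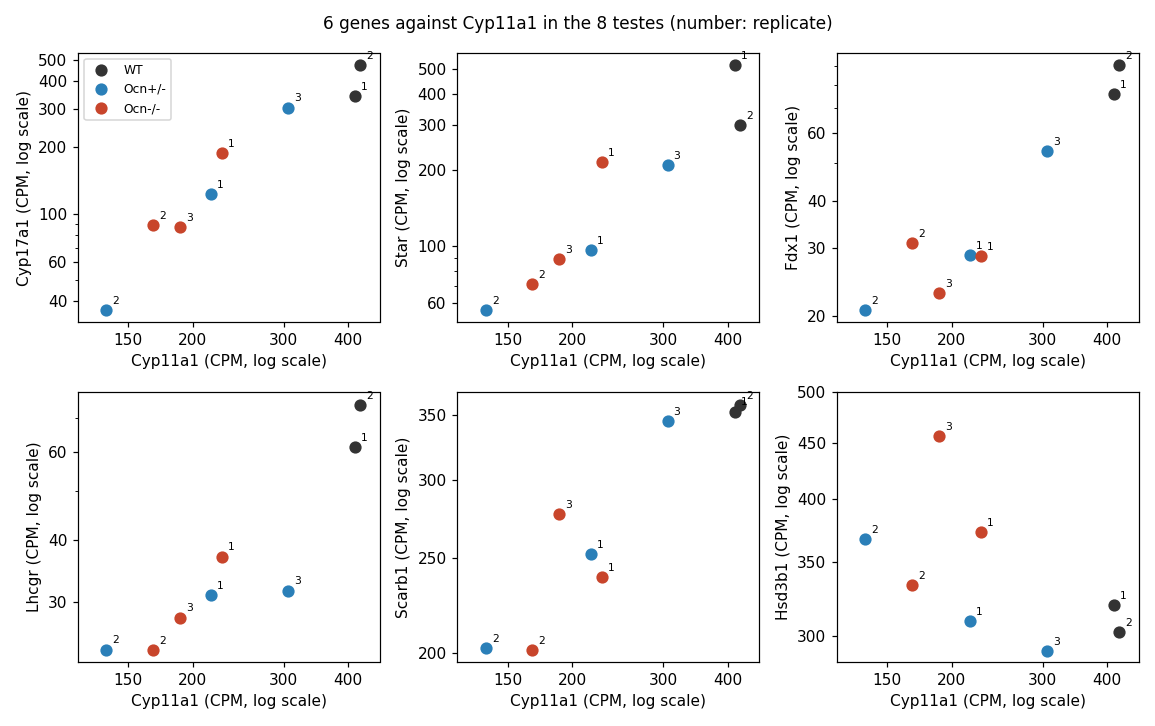
Levels of 6 genes (vertical axes, CPM, log scale) against Cyp11a1 (horizontal axis, CPM, log scale) in the 8 testes, colored by genotype and numbered by replicate. Cyp17a1, Star, Fdx1, Lhcgr and Scarb1 rise with Cyp11a1 from Ocn+/- testis 2 to the WT testes, and Hsd3b1 does not.

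By the same measure, the genes most like 3 of the members were looked up among the 12498 genes whose mean over the testes was 5 CPM or more. For Star these were Srxn1 (r = 0.98), Hspa1b, Alas1, Cyp11a1 and Myadm (0.93). For Cyp11a1 they were Bsg (0.97), Cyp17a1, Prdx6, Alas1 and Sema3b (0.96). For Lhcgr they were Arl3 (0.98), Prelid2, Armcx2, Tpi1 and Aoc3 (0.97). Alas1, the first enzyme of heme synthesis, was on the list of both Star and Cyp11a1, and its log2 fold change for the mean of both mutant genotypes was −1.39 (adjusted p = 0.0067). Tpi1, a glycolytic enzyme, was lower by −1.19 (adjusted p = 6.5e-06). These correlations, too, include the step between WT and mutant testes.

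The counts of Star share their place in the genome with other genes, and the WT libraries differed there. On the opposite strand Ash2l (chromosome 8, 26302560 to 26337743), a subunit of histone methyltransferase complexes, covers 58.5% of the exonic bases of Star, and 59.4% of the 50-base stretches of Star's longest transcript occur in it. Whether reads were counted by strand is not given in the sources used here. Lsm1 (26275316 to 26295732), a factor of mRNA decay, lies directly before Star on the same strand and shares no exonic base with it. In testes Ash2l had 49.2 CPM in WT testis 2 and 106 to 118 CPM in the 7 others. Lsm1 had 13.8 CPM in WT testis 2 and 21.3 to 29.0 in the others. Star was likewise lower in WT testis 2 than in WT testis 1, as were Hsd3b1, Hsd17b3 and Nr5a1 by smaller amounts, while the 6 other members were higher in WT testis 2.

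The forebrain showed the same step in 2 of its WT libraries. Ash2l had 56.7 and 58.7 CPM in WT forebrains 2 and 3, 99.5 in WT forebrain 1 and 86.7 to 101 in the 6 mutants. Lsm1 had 8.98 and 8.72 CPM in those libraries, 17.5 in WT forebrain 1 and 19.9 to 24.1 in the mutants. Star had 7.37 and 8.72 CPM there, against 13.5 in WT forebrain 1 and 9.02 to 16.2 in the mutants. All 3 genes were thus lowest in the same WT libraries of the forebrain, and in testes WT testis 2 was the lowest library for Ash2l and Lsm1. The part of this step in the change of Star was not tested. Without WT testis 2 the log2 fold change of Star in mutant testes was −2.06 (adjusted p = 0.398), and without WT testis 1 it was −1.28 (adjusted p = 0.534). In forebrain it went from 0.35 (adjusted p = 0.291) to −0.06 (adjusted p = 0.971) without WT forebrains 2 and 3. These fits each rest on 1 WT library, assumed to vary like the other groups.

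**Figure D4:**
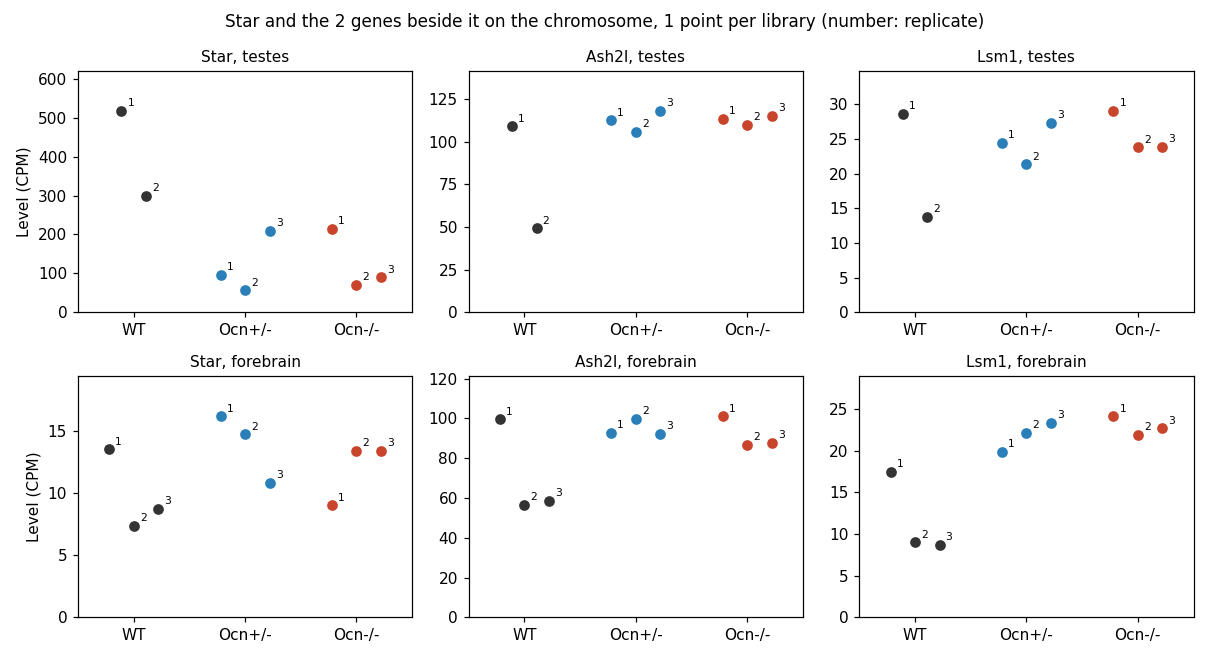
Levels (vertical axes, CPM) of Star, Ash2l and Lsm1 in testes (top) and forebrain (bottom) by genotype, with each library as a point and its replicate number. WT testis 2 and WT forebrains 2 and 3 lie lowest in Ash2l and Lsm1, with Ash2l at 49.2, 56.7 and 58.7 CPM.

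Other genes of the pathway were followed in lists drawn up with earlier results of these data known. Over all genes, the shares called lower and higher were 4.36% and 3.89% for Ocn+/-, 3.09% and 2.54% for Ocn-/- testes, and for the mean of both 5.43% and 4.51%. Of 24 other genes of steroid synthesis and cholesterol handling, 20 could be tested. In Ocn+/- testes 4 were lower and 1 higher, in Ocn-/- testes 1 was lower, and for the mean of both 3 were lower and 1 higher. Soat1, which stores cholesterol as esters, was lower in both mutant genotypes (log2 −1.25, SE 0.128 and −0.94, SE 0.128, adjusted p = 2.7e-05 and 0.00059). Cyb5a, which helps CYP17A1 make androgens (log2 −0.71, adjusted p = 0.00656), and Akr1c14, which reduces steroids (−1.01, adjusted p = 0.00942), were lower in Ocn+/- testes, as was Hsd17b12 (−0.46, adjusted p = 0.045). Stard3, a cholesterol carrier of late endosomes, was higher there (0.63, adjusted p = 0.0298). The median log2 fold change of the 20 was −0.09 for the mean of both genotypes, beside −0.75 for the 10 genes. Of 8 other genes of fetal Leydig cells only Prlr, the prolactin receptor, was called, lower in both mutant genotypes (log2 −0.71, SE 0.131 and −0.58, SE 0.131, adjusted p = 0.0054 and 0.0176). The others, Thbs2, Mc2r, Crhr1, Ren1, Dlk1, Inha and Inhba, were not called.

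Of 13 transcription factors of the Leydig lineage, 3 were lower in each mutant genotype and none was higher. Nr4a1, an early gene that LH switches on in Leydig cells, was 3.69-fold lower for the mean of both mutant genotypes (log2 −1.89, SE 0.185, adjusted p = 0.000318), with 223 and 226 CPM in WT and 36.1 to 84.8 CPM in the mutants. Crem, which encodes cyclic AMP response factors, was 2.44-fold lower (log2 −1.29, SE 0.190, adjusted p = 0.0007). Cebpb, another factor that binds steroidogenic promoters, was 2.27-fold lower (−1.18, SE 0.196, adjusted p = 0.00176). Gata4, Gata6, Nr0b1, Nr2f2 and Creb1 were among those not called in these comparisons.

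Of 10 tested genes of cyclic AMP signalling, 3 were lower in Ocn+/- testes, 1 in Ocn-/- testes and 3 for their mean, and none was higher. Those 3 encode phosphodiesterases, which break cyclic AMP down. Pde4d was 3.23-fold lower (log2 −1.69, SE 0.160, adjusted p = 7.6e-06), Pde8b 1.60-fold (−0.67, SE 0.168, adjusted p = 0.0206) and Pde8a 1.44-fold (−0.52, SE 0.119, adjusted p = 0.0133). The G protein gene Gnas was not called (log2 −0.13, SE 0.119). Gprc6a, a receptor that osteocalcin is known to bind on Leydig cells, had 0 to 2 counts per testis, within the 3 that a count of 0 cannot exclude. Of 21 genes of the signals that reach Leydig cells, 2 were lower in Ocn+/- testes (Pdgfra and Igf1), 1 in Ocn-/- testes (Jag1) and 2 for the mean (Pdgfra and Jag1), none higher. Jag1, a Notch ligand, was lower by a log2 of −0.53 (SE 0.116, adjusted p = 0.0102) and Pdgfra, a receptor on Leydig progenitors, by −0.36 (SE 0.107, adjusted p = 0.0414).

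Markers of other cell types moved in the same testes. All 6 endothelial genes had log2 fold changes below 0 in both mutant genotypes, and 3 were called lower in Ocn+/- and 5 in Ocn-/- testes, among them Pecam1 (2.04-fold lower for the mean, adjusted p = 0.0002), Kdr (1.80-fold, adjusted p = 0.0006), Emcn, Tek and Cdh5. Their summed level was 561 to 574 CPM in WT, 349 to 415 in Ocn+/- and 331 to 367 in Ocn-/- testes. Of 8 Sertoli cell genes Sox9 was 2.01-fold higher (log2 1.01, SE 0.142, adjusted p = 0.000473), and the 7 others, Amh included (log2 0.01), were not called. Of 7 germ cell genes Tdrd9, Dnmt3l and Piwil4 were lower for the mean, and the summed level was 345 to 397 CPM in WT and 278 to 347 CPM in mutant testes. Of the markers of interstitial progenitors, from which Leydig cells arise, Pdgfra had 1029 and 1056 CPM in WT and 690.1 to 869 CPM in mutant testes. Nr2f2 had 245 and 294 CPM in WT and 189 to 269 CPM in the mutants, 5 of 6 below WT, and was not called (mean log2 −0.28, adjusted p = 0.156). Tcf21 overlapped between WT and mutants (−0.03, adjusted p = 0.893).

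All 6 smooth muscle genes had log2 fold changes below 0 in Ocn-/- testes (median −0.45) and for the mean (median −0.39), and 1 of them, Myh11, was called lower for the mean. Of 6 macrophage genes 1, Cx3cr1, was higher in Ocn+/- testes and for the mean, while 4 of the 6 had values below 0 for the mean (median of the list −0.33) and 5 of the 6 in Ocn-/- testes (median −0.63). Of 5 genes of the mesonephric ducts, Pax2 and Lhx1 were higher in Ocn+/- testes and Lhx1 in Ocn-/- testes. None of the 4 tested erythroid genes was called, though Hba-a1 and Alas2 had log2 fold changes of −1.27 and −1.30 for the mean, and the same held for Plin1, the 1 fat cell gene tested (0.67, adjusted p = 0.0537), and Gad1, the 1 neuron gene tested (−1.10, adjusted p = 0.239).

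Adrenal cortex also makes steroids and expresses Star, Cyp11a1 and Nr5a1. No testis held a count of Cyp11b2 (0 counts, with an upper limit of 3), and Cyp11b1 had 0 to 16. Cyp21a1, an enzyme of the adrenal that fetal testes are also known to express, had 174 and 322 counts in WT and 46 to 203 in mutant testes. The 6 adrenal genes together reached 56.6 to 74.8 CPM in WT, 29.1 to 60.8 in Ocn+/- and 32.6 to 42.1 in Ocn-/- testes, and none of the 4 tested was called (Cyp21a1 −1.18, adjusted p = 0.169, Mrap −1.02, adjusted p = 0.0849). Some genes stand on 2 of the lists, among them Mc2r, Cyp21a1, Cyp11b1, Pdgfra, Nr2f2 and Amh. The part of any of these cell types in the levels of the 10 genes was not tested.

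The forebrain served as the contrast. All 10 genes were higher in testes, and all 10 passed the test across both tissues, where 44.5% of all genes were called higher in testes. Hsd3b1, Cyp17a1, Hsd17b3, Insl3 and Nr5a1 entered this test only through their counts in testes, so their calls as higher followed from the filter. The other 5 also passed the filter in forebrain. The difference ran from 6.05-fold for Scarb1 and 6.81-fold for Fdx1 over 12.2-fold for Star and 13.8-fold for Lhcgr to 393-fold for Cyp11a1, 1080-fold for Cyp17a1 and 1831-fold for Hsd17b3 (log2 10.84, SE 0.192). For the genes with almost no counts in forebrain these folds are fitted values, not bounds. Scaling by library size alone moved the median over all genes from 0.09 to 0.40 on the log2 scale and left all 10 higher in testes. Cyp17a1, Hsd17b3, Hsd3b1 and Insl3 had 0 to 7 counts in every forebrain library and were too low to test there. Nr5a1 was too low as well, with 26 counts in Ocn+/- forebrain 1 and 0 to 3 in the 8 others.

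Among the 5 genes that could be tested in forebrain, none was called. Scarb1 had 29.7 to 43.9 CPM, Star 7.37 to 16.2, Fdx1 3.57 to 6.40, Lhcgr 1.56 to 4.98 and Cyp11a1 0.178 to 0.852 CPM over the 9 libraries. The highest Lhcgr value was that of WT forebrain 3, and the 8 other libraries lay between 1.56 and 2.72 CPM. Of all genes tested in forebrain, 3.89% were called in Ocn+/-, 4.85% in Ocn-/- mice, 8.68% for their mean and 0.00622% between the mutant genotypes, lower or higher. The share of lower ones among the calls was 69% in Ocn+/-, 62.8% in Ocn-/- and 62.1% for the mean with TMM, and 52.3%, 35.5% and 35.4% with library size alone. The log2 fold changes for the mean of both mutant genotypes were −0.14 for Scarb1 (95% interval −0.38 to 0.09), −0.04 for Fdx1 (−0.48 to 0.40), −0.30 for Lhcgr (−1.03 to 0.42) and 0.79 for Cyp11a1 (−0.42 to 2.00, on 1 to 12 counts). The sign for Lhcgr rested on WT forebrain 3, without which the value was 0.31 (adjusted p = 0.701).

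**Figure D5:**
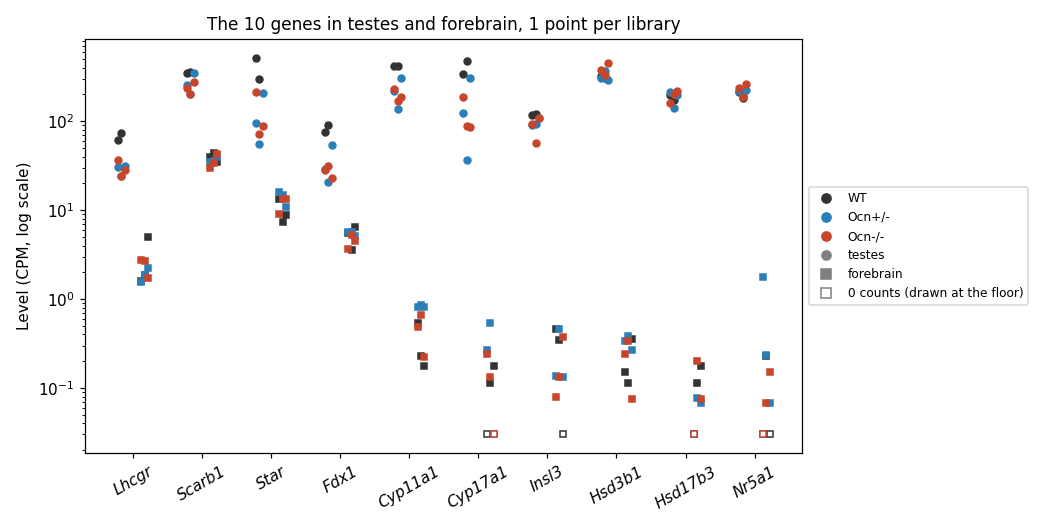
Level of each gene (vertical axis, CPM, log scale) in testes (circles) and forebrain (squares), colored by genotype, with libraries of 0 counts drawn open at the bottom. Every testis lies above every forebrain library in each of the 10 genes, by the least in Fdx1, where the lowest testis has 20.7 CPM and the highest forebrain 6.40 CPM.

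Whether the mutant change itself differed between the tissues was tested in a joint fit. Of the 5 genes that could also be tested in forebrain 1, Fdx1, had a change that was lower in testes than in forebrain (difference of log2 fold changes −1.41, SE 0.361, adjusted p = 0.0412), beside 1.71% of all genes. The other members had almost no counts in forebrain and entered the joint fit through testes alone, so their differences say little (SE 3.80 for Cyp17a1, 1.84 for Nr5a1). None of them was called. For Lhcgr the difference was −0.99 (SE 0.370, adjusted p = 0.149), for Star −2.09 (SE 0.727, adjusted p = 0.153) and for Cyp11a1 −1.78 (SE 0.761, adjusted p = 0.223). The difference for Lhcgr passed in 2 of 25 alternatives, with no filter (adjusted p = 0.028) and without WT forebrain 3 (−1.52, adjusted p = 0.0241), the library of the highest forebrain level. Without the WT libraries of low Ash2l no member passed this test (Fdx1 −1.15, adjusted p = 0.584).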

How the data were processed

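RNA was measured in 8 testes and 9 forebrains. According to the paper, poly-A RNA was made into libraries with a NEBNext Ultra kit, and reads were trimmed with Trim Galore 0.6.6, aligned to GRCm39 with STAR 2.7.8a and counted with RSEM 1.3.3. The authors deposited 1 table of RSEM expected counts, not normalized, which RSEM divides among genes that share reads. The annotation release and the strand setting are not given in the sources used here. Values were rounded to whole counts (9625 genes had fractional values in 1 or more libraries). Symbols and positions came from GENCODE on GRCm39, which held 54749 of the 55359 identifiers.

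In R 4.3.3, edgeR 4.0.16 with TMM factors (0.958 to 1.04 in testes, 0.866 to 1.04 in forebrain), its filter on low counts and robust quasi-likelihood tests (2-sided) was fitted to the 3 genotypes of each tissue, and to all 6 groups for the tissue comparisons. SE is the fold change divided by the root of F. Correlations used log2 CPM with a prior count of 2. The groups and replicate numbers are those of the labels, which tie no libraries of different genotypes to each other, so no block was used. Deviations from the genotype means correlated at −0.187 to 0.173 (testes) and −0.148 to 0.298 (forebrain) between same-numbered libraries. Between different numbers r was −0.173 to 0.187 and −0.350 to 0.252. It exceeded 0.1 in 3 of 7 same-numbered and 2 of 14 other pairs of testes, and in 3 of 9 and 3 of 18 of forebrains. Once centered, the 2 WT testes mirror each other, so these values could not decide whether the numbers pair libraries. Alternatives were upper quartile or library size scaling, DESeq2 1.42.0, other filters, the likelihood ratio test, fits of 2 genotypes, a replicate block and leaving out each library.

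The 10 genes, the lists and the tests were chosen with earlier results of these data known. All 10 genes are named throughout. The interstitial progenitor list is given for 3 of its genes, and its sum, which includes 1 more gene, is not reported here. Of each list, genes past an adjusted p of 0.05 in a testis comparison with WT are named, at most 6, in addition to some that were not called, chosen after their values were seen. The p-values measure the spread between libraries, which nothing in the labels ties to separate litters. Counting error alone is covered by the limit of 3 counts given for a count of 0.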

Additional observations from a re-analysis of the deposited data

Results flagged for a closer look

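Fdx1 was the 1 gene, of the 5 that could also be tested in forebrain, whose change differed between the tissues by the test of the difference itself (−1.41 on the log2 scale, adjusted p = 0.0412, joint edgeR fit). It was lower in 6 of 6 mutant testes than in both WT testes, while in forebrain its 9 values overlapped between the genotypes. The call held in 4 of 17 fits that left out 1 library, with an adjusted p of up to 0.189 without WT testis 2, and of 0.584 without the WT libraries of low Ash2l. With a replicate block, whose numbers the labels do not tie to each other, the difference was −1.57 and not called (adjusted p = 0.0681).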

How the results depend on the processing

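Lhcgr, Fdx1 and the other 5 members that lay below WT kept their direction in testes under all alternatives run. The number of members called lower in Ocn+/- testes, Ocn-/- testes and for the mean of both (1, 2 and 2 as reported) was 2, 4 and 4 with DESeq2, 4, 5 and 5 with no filter, 3, 3 and 4 with the likelihood ratio test, and 4 in Ocn-/- testes when these were fitted with WT alone. Leaving out each library gave 1 to 4, 0 to 4 and 1 to 4, with 0 in Ocn-/- testes without WT testis 2. The tissue difference, with 1 member called, had 3 with DESeq2, 2 with no filter, 3 with the likelihood ratio test, 0 without the WT libraries of low Ash2l and 0 to 1 when a library was left out. All 10 members stayed higher in testes when any library was left out, which for the 5 too low to test in forebrain followed from the filter on low counts. With at least 10 counts in every library 4 did, and only 4 were left to test. The cause of these changes was not tested, apart from the genes lost to that filter. The labels do not say whether the replicate numbers pair the libraries. With a replicate block the counts were 3, 4 and 3, and 0 for the tissue difference. Over all genes, calls in testes were 1350, 922 and 1626 as reported, 966, 836 and 1170 with the block, 2149, 1763 and 2351 with no filter, and as few as 118, 85 and 125 without WT testis 2. DESeq2 called 1640 of 13909, 1268 of 14475 and 1815 of 14475 genes, and the likelihood ratio test 1806, 1389 and 2053 of 16361. The fit with no filter tested 29196 genes. Fitted with WT alone, Ocn-/- testes had 905 of 15959 called. With DESeq2, the likelihood ratio test and no filter, calls thus rose over all genes as well. The change of Star for the mean of both mutant genotypes had an interval below 0 (−3.32 to −0.15) but did not pass the adjustment over all genes.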
